A study of Mus musculus with 6 samples.

Results

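The genes described here include the NF-kB subunits Nfkb1, Nfkb2, Rel and Relb and the IκB (NF-kB inhibitor) family genes Nfkbia, Nfkbie and Nfkbiz. With the feedback genes Tnfaip3, Bcl3 and Birc3 they make 10 of the 22162 genes in the table. They were taken by gene name, and each name had 1 row. MSFs are mouse skin fibroblasts grown from the dorsal skin of a female FASST mouse on the FVB/N background. These cells carry a Cre that needs tamoxifen (TAM), driven by the pro-alpha 2(I) collagen promoter, and a p27Kip1 allele at the ROSA26 locus that stays silent until Cre removes a stop cassette. MSFs given 10 µM TAM for 48 h are labelled senescent (3 libraries), and MSFs given the ethanol vehicle (EtOH) are labelled non-senescent (3 libraries), so both groups carry the Cre and the silent allele. No arm received TAM without the p27Kip1 allele, so the drug and the allele cannot be told apart. The age of the mouse and the time from treatment to RNA are not given in the sources used here. Nothing states that replicates came from separate animals, so p-values measure the spread between these libraries only.

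NF-kB is a family of dimeric transcription factors that sit in the cytoplasm, held by IκB proteins, until a receptor for TNF, IL-1 or a microbial product activates a kinase that marks the IκB for destruction. The freed dimers enter the nucleus and switch on inflammatory genes together with their own inhibitors, so that the response shuts itself off. In skin fibroblasts this circuit drives cytokine and chemokine release, and in senescent cells it is known as a driver of the secretory phenotype.

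Such feedback is known to act through kappa-B sites in the promoters of these genes. The sequence tables of RefSeq (GRCm38.p6) held start-site windows for 7 of the genes and not for Nfkb1, Relb or Nfkbiz, and each window was found unchanged in mm9. The kappa-B consensus, the 10-base motif bound by NF-kB dimers, was searched on both strands of the 250 bases before each start. The 7 genes were picked as known NF-kB genes, so a share above that of all genes follows in part from the choice. The consensus was present for 5 of the 7, compared with 1204 of 27025 genes with a window (4.46%). The 60-base stretches below show these matches in capitals with mm9 positions, read 5′ to 3′ on the strand of the gene, and show, for each of these 5 genes, the matches nearest its first start. A further match of Tnfaip3, farther upstream, and 1 match in each of the other 2 windows of Nfkb2 are not shown.
Nfkbia, chr12:56593635-56593694, minus strand: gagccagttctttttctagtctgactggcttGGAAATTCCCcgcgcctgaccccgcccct
Nfkb2, chr19:46379167-46379226, plus strand: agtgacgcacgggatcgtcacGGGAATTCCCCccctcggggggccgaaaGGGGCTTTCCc
Tnfaip3, chr10:18735217-18735276, minus strand: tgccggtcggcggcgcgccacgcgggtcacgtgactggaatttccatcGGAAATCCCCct
Rel, chr11:23671026-23671085, minus strand: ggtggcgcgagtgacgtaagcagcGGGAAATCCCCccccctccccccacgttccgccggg
Nfkbie, chr17:45692518-45692577, plus strand: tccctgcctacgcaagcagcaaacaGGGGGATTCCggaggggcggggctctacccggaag
In Rel and in the left-hand run of Nfkb2 overlapping matches form 1 run. The windows of Bcl3 and Birc3 held no match to this consensus, which says only that these letters are not in that window.

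The deposited values are normalized counts, which are not whole numbers, and they summed to between 14952367 and 17314953 per library. Of the table, 11877 genes reached 1 c.p.m. (16.2 normalized counts) in at least 3 of the 6 libraries, and all 10 genes described here were among them. Cdkn1b, the gene of p27Kip1, had 1427, 3074 and 1853 normalized counts in EtOH replicates 1, 2 and 3 and 1699, 1520 and 1630 in the TAM replicates. Its log2 fold change was −0.32 (limma adjusted p = 0.677), and whether reads of the ROSA26 allele were counted on it is not stated. Fibroblast markers summed to between 95213 and 104293 c.p.m. in the EtOH libraries and between 43353 and 69937 in the TAM libraries (11 genes). The 14 leukocyte markers summed to between 11.3 and 29.2 c.p.m. in the EtOH and between 17.4 and 30.1 in the TAM libraries, and Cd3e was listed at 0 throughout. The pan-leukocyte marker Ptprc was at most 5.01 normalized counts in any library. Keratinocyte markers (9 genes) summed to at most 17.4 c.p.m. and endothelial markers (7 genes) to at most 14.9 c.p.m. in any library.

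The first comparison asked whether the NF-kB subunit and feedback genes differed between TAM- and EtOH-treated MSFs. None of the 10 passed an adjusted p of 0.05 in limma, without or with the replicate number as a block, where 0.244% and 1.62% of all genes tested did. At an unadjusted p under 0.05 the count was 1 (Nfkb2, higher) in either fit, and without the block 6.67% of all genes were higher at that level. The log2 fold change, a difference of mean log2(normalized counts + 1), was positive for 8 of the 10, with a median of 0.31, whereas the median of all genes tested was −0.03. In Nfkb2 and Birc3 the TAM libraries all lay above the EtOH libraries, as they did in 9.19% of all genes, and in none of the 10 did they all lie below, as they did in 11.4% of all genes. In bulk RNA a change in cell make-up and a change in RNA per cell cannot be told apart.

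**Figure D1:**
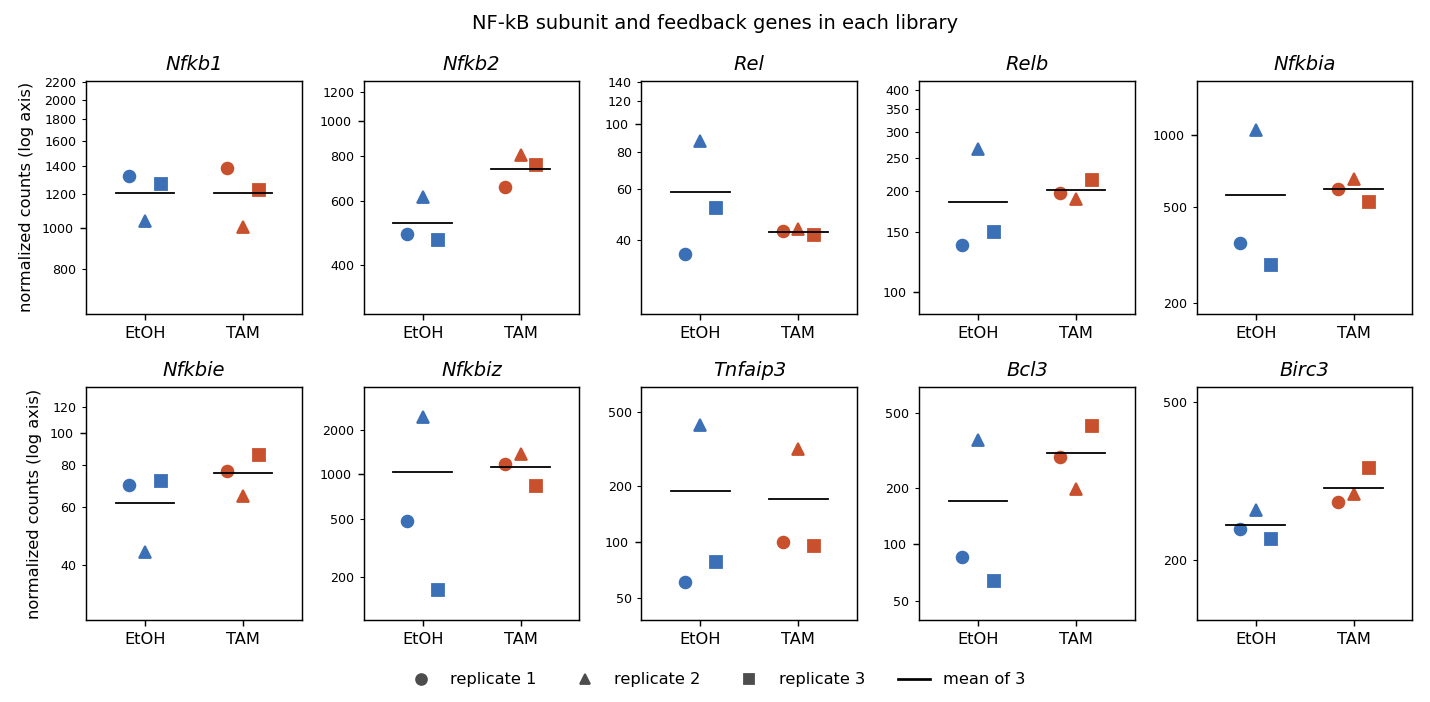
Normalized counts (log axis, scaled separately in each panel) of the 10 genes in EtOH and TAM libraries, with symbols for the replicate number and a line at the mean of 3. EtOH replicate 2 (triangle) stands above the other EtOH libraries for Nfkbiz (2455), Tnfaip3 (423), Bcl3 (359) and Nfkbia (1046), while Nfkb2 and Birc3 separate by treatment.

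Among the subunits, Nfkb2 differed most between the groups. Nfkb2 (ENSMUSG00000025225, mm9 chromosome 19, 46379227 to 46386580) encodes the precursor that is trimmed to the partner of RelB in the slower, non-canonical pathway. Its normalized counts were 487, 615 and 470.3 in EtOH replicates 1, 2 and 3 and 657, 804 and 753 in TAM replicates 1, 2 and 3. All TAM libraries were higher, and the 3 same-numbered pairs differed by 0.43, 0.39 and 0.68 on the log2 scale. A log2 fold change of 0.50 with a standard error of 0.18 resulted, a fold of 1.41, and limma gave an adjusted p of 0.306, or 0.236 with the block. Relb (ENSMUSG00000002983, chromosome 7, 20191566 to 20214787), the subunit that pairs with the Nfkb2 product, had 137, 265 and 150.5 normalized counts with EtOH and 197, 189 and 215 with TAM. The TAM values were close together and lay inside the EtOH range, because EtOH replicate 2 was the highest of all. For Relb the log2 fold change was 0.18 (95% interval −0.49 to 0.85, limma adjusted p = 0.831). It was 0.47 without EtOH replicate 2, 0.0015 without EtOH replicate 1 and 0.07 without EtOH replicate 3.

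Nfkb1 (ENSMUSG00000028163, chromosome 3, 135247619 to 135354511), the precursor of the DNA-binding partner of the canonical dimer, had 1327, 1039 and 1267 normalized counts with EtOH and 1385, 1008 and 1229 with TAM. The replicate 2 library was the lowest in each group and the groups covered the same range. Its log2 fold change was −0.01 (95% interval −0.46 to 0.44, limma adjusted p = 0.989), and its sign turned when the libraries were scaled to equal sums or by median ratios. Rel (ENSMUSG00000020275, chromosome 11, 23641514 to 23670970), best known as a subunit of lymphocytes, had 35.8, 87.8 and 51.4 normalized counts with EtOH and 43.1, 43.6 and 41.6 with TAM. The 3 TAM values differed by a factor of 1.05, and the EtOH values by 2.45. For Rel the log2 fold change was −0.34 (95% interval −1.24 to 0.55, limma adjusted p = 0.744), and it was −0.0055 without EtOH replicate 2 and −0.64 without EtOH replicate 1.

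Of Nfkbia, Nfkbie and Nfkbiz, the first and last were higher in every TAM library than in EtOH replicates 1 and 3, and highest in EtOH replicate 2. Nfkbia (ENSMUSG00000021025, chromosome 12, 56590398 to 56593634) encodes IκBα, the inhibitor that is destroyed on activation and made again by NF-kB itself. It had 356, 1046 and 289 normalized counts with EtOH and 598, 656 and 526 with TAM. Its log2 fold change was 0.31 (95% interval −0.77 to 1.39, limma adjusted p = 0.816), and without EtOH replicate 2 it was 0.88 (standard error 0.19, adjusted p = 0.176). Without EtOH replicate 1 or 3 it was 0.10 or −0.05. Nfkbiz (ENSMUSG00000035356, chromosome 16, 55811488 to 55839012) encodes IκBζ, a nuclear protein induced by IL-1 and microbial products that is needed for secondary genes such as Il6 and Lcn2. Nfkbiz had 481, 2455 and 164 normalized counts with EtOH, where the highest was 15-fold the lowest, and 1170.4, 1377 and 835 with TAM, where that ratio was 1.65. The log2 fold change of Nfkbiz was 0.93 (95% interval −1.13 to 2.99, limma adjusted p = 0.692) with all libraries and 1.97 (standard error 0.48, adjusted p = 0.202) without EtOH replicate 2. Without EtOH replicate 3, its lowest library, it was 0.02 (adjusted p = 0.996).

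Nfkbie (ENSMUSG00000023947, chromosome 17, 45692665 to 45700118), the gene of IκBε, a slower inhibitor induced by the same dimers, behaved otherwise. Its normalized counts were 69.6, 43.8 and 71.8 with EtOH and 76.7, 64.5 and 85.9 with TAM. EtOH replicate 2 held the lowest value here, and each TAM library exceeded its same-numbered EtOH library. The log2 fold change was 0.31 (95% interval −0.40 to 1.03, limma adjusted p = 0.700) and was 0.09 without EtOH replicate 2.

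Of the 10 genes, the feedback gene Bcl3 had the largest difference with all 6 libraries, and Nfkbiz had the largest without EtOH replicate 2 or TAM replicate 3. Bcl3 (ENSMUSG00000053175, chromosome 7, 20393811 to 20408119) encodes a nuclear IκB protein that joins NF-kB homodimers on DNA, and it lies on the same chromosome as Relb. It had 85.7, 359 and 63.6 normalized counts with EtOH and 293, 198 and 428 with TAM. Pairs 1 and 3 were higher with TAM by 1.76 and 2.73 on the log2 scale, and pair 2 was lower with TAM, at −0.86. The log2 fold change was 1.21 (95% interval −0.30 to 2.73, limma adjusted p = 0.476), and it was 1.97 (standard error 0.37, adjusted p = 0.143) without EtOH replicate 2 and 0.73 (adjusted p = 0.802) without EtOH replicate 3. With both libraries numbered 2 left out, an alternative chosen after seeing the data, it was 2.25 (adjusted p = 0.0673). Antisense to Bcl3 lies Gm16175, which covers 6.48% of its exon sequence, and the strand setting of the counting is not stated, so their reads cannot be told apart there.

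Tnfaip3 (ENSMUSG00000019850, chromosome 10, 18720716 to 18735463) encodes a ubiquitin-editing enzyme that disarms the receptor complexes upstream of NF-kB. It had 61.5, 423 and 78.7 normalized counts with EtOH and 100.2, 318 and 95.4 with TAM. The libraries numbered 2 were the highest of the 6 in both groups. TAM replicates 1 and 3 were above their EtOH counterparts by 0.70 and 0.28 on the log2 scale, and pair 2 was lower with TAM, at −0.41. The log2 fold change of Tnfaip3 was 0.19, with a standard error of 0.80 without the block (limma adjusted p = 0.947) and of 0.28 with it (adjusted p = 0.784). It was 1.05 without EtOH replicate 2 and −0.33, −0.16 and −0.38 without EtOH replicate 1, EtOH replicate 3 and TAM replicate 2. Birc3 (ENSMUSG00000032000, chromosome 9, 7848699 to 7873186), whose product is a ubiquitin ligase that protects cells from TNF-induced death, had 240.0, 268 and 227 normalized counts with EtOH and 279.9, 293 and 341 with TAM. Here every TAM library was higher, by a small margin. Its log2 fold change came to 0.31 with a standard error of 0.18, a fold of 1.24 (limma adjusted p = 0.524).

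**Figure D2:**
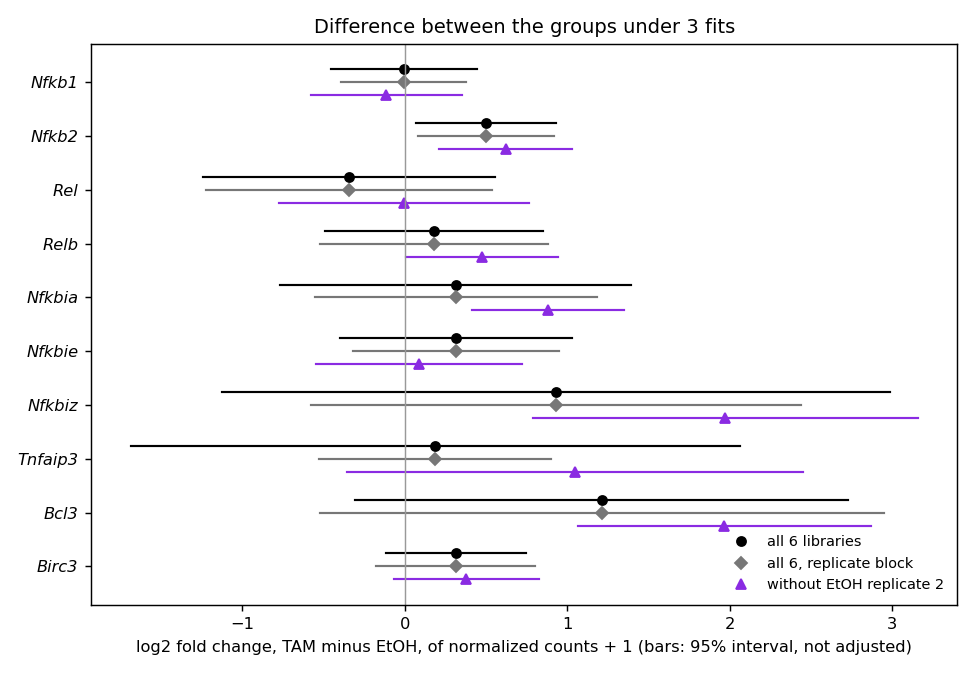
Log2 fold change (TAM minus EtOH, normalized counts + 1) of each gene with its 95% interval from limma, for all 6 libraries, for the same with the replicate block, and without EtOH replicate 2. Intervals of Nfkbiz and Bcl3 narrow and move to 1.97 on leaving out that library, while those of Nfkb1 and Rel stay across 0.

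A library that stood apart in many of these values was EtOH replicate 2. It was the highest of the 6 libraries for 5 of the 10 genes (Rel, Relb, Nfkbia, Nfkbiz and Tnfaip3) and for 24.5% of all genes tested. In 4 genes, Nfkbia, Nfkbiz, Tnfaip3 and Bcl3, it was at least 2-fold above both other EtOH libraries, as it was in 6.47% of all genes. Over the higher of EtOH replicates 1 and 3 its ratio was 5.37 for Tnfaip3, 5.11 for Nfkbiz, 4.18 for Bcl3, 2.94 for Nfkbia, 1.76 for Relb and 1.71 for Rel, and it was 0.611 for Nfkbie. In 3 of the 10 genes, Nfkbia, Nfkbiz and Tnfaip3, both libraries numbered 2 lay above all others, as they did in 12.6% of all genes. This way of looking at the libraries was chosen after their values were seen. The sum of leukocyte markers was also highest of the EtOH libraries in replicate 2, at 29.2 c.p.m. against 11.3 and 15.6, with Cd68 at 352 normalized counts against 52.1 and 97.4. Ptprc and Cd3e were listed at 0 in that library. Of the 3 leukocyte markers that passed the filter on low values, EtOH replicate 2 was the highest of the 6 libraries for 1 and the lowest for 2. The part of these markers in the result was not tested. The median-ratio size factor of EtOH replicate 2 was 1.01, within the range of 0.982 to 1.02 over the 6 libraries. The ratio of the highest to the lowest library had a median of 2.19 over the 10 genes in EtOH and of 1.29 in TAM, and the log2 spread was larger in EtOH for 8 of the 10, compared with 47.8% of all genes.

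**Figure D3:**
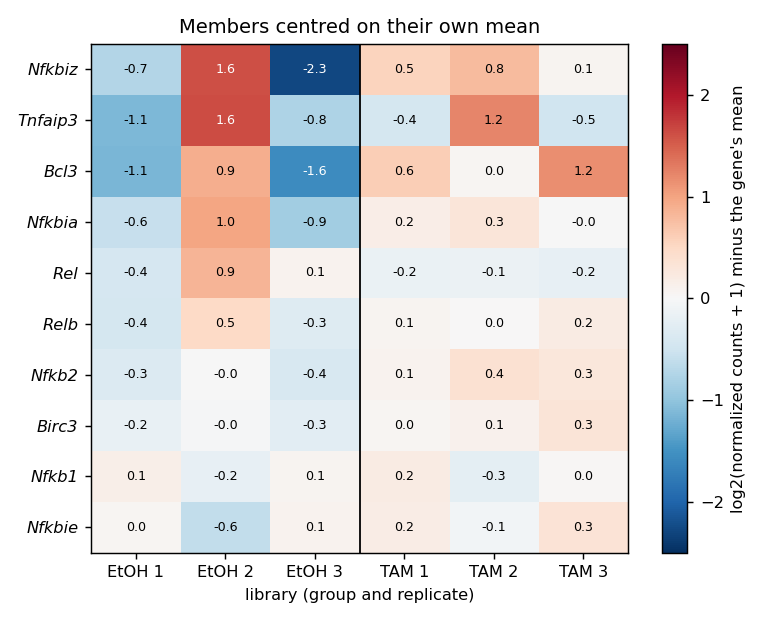
Log2(normalized counts + 1) of each gene minus its mean over the 6 libraries, with genes ordered by how far EtOH replicate 2 lies above the other EtOH libraries. The upper rows (Nfkbiz, Tnfaip3, Bcl3, Nfkbia) are high in EtOH 2 and low in EtOH 1 and EtOH 3, and the TAM columns vary less in most rows.

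Without EtOH replicate 2, 5 of the 10 genes were higher with TAM at an unadjusted p under 0.05, compared with 7.59% of all genes. These were Relb, Nfkbia, Nfkbiz and Bcl3, and Nfkb2, which was under that level with all 6 libraries too. After adjustment none of the 10 passed without EtOH replicate 2, and the smallest limma adjusted p was 0.143. Without any other single library the count at an unadjusted p under 0.05 was 0 or 1. When limma weighted each library by its fit, Nfkb2 (log2 fold change 0.60, adjusted p = 0.0366) and Bcl3 (2.20, adjusted p = 0.0239) passed, and 3.25% of all genes were called higher in that fit.

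Per exon length, Nfkbia was at a mean of 22.7 c.p.m. per kb over the 6 libraries, followed by Nfkb1 (15.6), Nfkbiz (13.3), Nfkb2 (11.9), Bcl3 (5.92), Birc3 (3.39), Relb (3.06), Nfkbie (1.76), Tnfaip3 (1.54) and Rel (1.12). By the median library the last 2 changed places, at 0.837 for Tnfaip3 and 0.957 for Rel. Taken over all libraries, each gene's range overlapped that of the next in this order. Compared within each library, however, Nfkb2 was above Bcl3 and Relb was above Nfkbie every time. Rela, the main activating subunit of the canonical dimer, was at 27.8 c.p.m. per kb. In every library Nfkb1 was at a higher level per length than Rel, whose highest value was 1.94 c.p.m. per kb.

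The rest of the pathway was read from a hand-compiled list of receptors, adaptors, kinases and regulators, of which 69 were in the table and 62 were tested. None was called without or with the block, and the median log2 fold change was 0.06. At an unadjusted p under 0.05 without the block, 7 of the 62 were higher with TAM and 2 were lower, where 6.67% of all genes were higher and 6.7% lower. With library weights Map3k14 (adjusted p = 0.0205), Il1r1 (0.0448) and Cd14 (0.0449) were called higher and Tab2 (0.0385) lower, compared with 3.25% and 3% of all genes. Rela had 1147, 1201 and 994 normalized counts with EtOH and 1352, 1364 and 1269 with TAM, a log2 fold change of 0.26 (limma adjusted p = 0.538). All TAM libraries of Rela lay above the EtOH libraries. Of the kinase complex that marks IκB, Chuk and Ikbkb had log2 fold changes of 0.04 and 0.09 (limma adjusted p = 0.956 and 0.883). Its scaffold Ikbkg stood at 1171 ± 93.3 (SD, n = 3) normalized counts with EtOH and 2169 ± 782 (SD, n = 3) with TAM, a log2 fold change of 0.83 (standard error 0.26). Its limma adjusted p was 0.258, and G6pdx, which is read from the opposite strand, shares 5.15% of its exon sequence.

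Map3k14, the kinase that starts the non-canonical pathway leading to Nfkb2 processing, had 316, 444 and 377 normalized counts with EtOH and 664, 489 and 961 with TAM. No library of one group lay inside the other, with a log2 fold change of 0.85 ± 0.28 (standard error) and a limma adjusted p of 0.268. Receptors varied. Tlr2, a receptor for bacterial lipoproteins, had a log2 fold change of 1.18 (limma adjusted p = 0.330), with EtOH replicate 2 above TAM replicate 3. The log2 fold change was 0.29 for the TNF receptor gene Tnfrsf1a, 0.39 for the IL-1 receptor gene Il1r1 and −0.06 for Tlr4, with limma adjusted p-values of 0.696, 0.658 and 0.919. The adaptor Myd88 was at −0.03, the inhibitor Nfkbib at 0.23, the ligase Birc2, a relative of Birc3, at −0.36, and the brakes Tnip1 and Cyld at −0.06 and 0.27, none with an adjusted p under 0.05.

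Genes that NF-kB is known to switch on were taken from a second hand-compiled list of 47, of which 32 passed the filter on low values. Il6 and Lcn2 were under the minimum level in every EtOH library and passed the filter only through the TAM libraries, so the counts are given for the other 30. Of these, none was called without the block, and with it 8 rose (Ccl2, Ccl7, Cxcl1, Cxcl5, Saa3, Mmp3, Mmp13 and Tnc) and none fell. Among all 11809 genes tested that did not pass only through TAM, 103 (0.872%) rose with the block. The median log2 fold change of the 30 target genes was 0.92. At an unadjusted p under 0.05 without the block 14 of the 30 were higher, where 6.18% of those 11809 genes were. Lcn2, which encodes an iron-binding acute-phase protein, had 5.94, 8.52 and 2.5 normalized counts with EtOH and 110.1, 112 and 68.8 with TAM, a log2 fold change of 3.96. Its TAM values alone brought it into the filtered fits, so no p-value is given from those. Without a filter its limma adjusted p was 0.0525. With a TAM library left out it no longer reached the minimum level in 3 libraries and was not tested. Several of these are cytokines and proteases that the study itself measured in these libraries, so the list is not independent evidence of its direction. Saa3, an acute-phase protein gene, had 38.0, 86.8 and 21.1 normalized counts with EtOH and 11472, 5533 and 938 with TAM. Its groups were far apart, at a log2 fold change of 6.53 ± 0.92 (standard error), and limma gave an adjusted p of 0.0588 without the block and 0.0212 with it.

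Ccl2, the gene of a monocyte-attracting chemokine, had 108, 383 and 57.4 normalized counts with EtOH and 2724, 8013 and 1198 with TAM. In both groups replicate 2 was the highest and replicate 3 the lowest, and the 3 same-numbered pairs differed by 4.64, 4.38 and 4.36 on the log2 scale. Limma gave Ccl2 an adjusted p of 0.113 without the block and 0.0044 with it. Il6, a cytokine gene of the secretory phenotype, had 5.16, 7.56 and 0 normalized counts with EtOH and 66.7, 138 and 26.2 with TAM. The EtOH values were all under the minimum level. Tnc, an extracellular matrix gene, and Cxcl1, a neutrophil-attracting chemokine gene, had log2 fold changes of 2.85 and 3.82 with overlapping groups (limma adjusted p = 0.0285 and 0.0420 with the block). Of the other target genes with large differences, Icam1, C3 and Ccnd1 had log2 fold changes of 2.65, 2.42 and 1.98 and Ccl5 a fold of 3.49, none with an adjusted p under 0.05 in limma, without or with the block.

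The target list held genes of both kinds, those that followed treatment and those that followed EtOH replicate 2. Of its 32 genes tested, which include Il6 and Lcn2, 14 had EtOH replicate 2 at least 2-fold above both other EtOH libraries, as in 6.47% of all genes. Of these, Ccl2, Ccl7, Icam1, Saa3 and Mmp3 were still higher in every TAM library than in EtOH replicate 2, and the groups overlapped in the other 9. EtOH replicate 2 was the highest of all 6 libraries in 7 of the 32 genes (21.9%), a share near that of all genes (24.5%). Ier3, an early-response survival gene, had 265, 3092 and 202 normalized counts with EtOH and 365, 1252 and 318 with TAM. Gadd45b, a stress sensor, had 766, 4389 and 746 with EtOH and 734, 621 and 1237 with TAM. Junb, an AP-1 subunit, had 324, 2768 and 177 with EtOH and 543, 951 and 714 with TAM. In each of these 3 genes, which were chosen after their values were seen, EtOH replicate 2 exceeded every TAM library. The chemokine gene Cxcl10, also chosen after its values were seen, was at 176 normalized counts in EtOH replicate 2 and between 5.95 and 37.1 in the other libraries. Ptgs2, the inducible cyclooxygenase, had 144, 2301 and 23.8 normalized counts with EtOH and 508, 8358 and 403 with TAM. Like Tnfaip3 it was highest in the libraries numbered 2, and its groups overlapped. Unlike Tnfaip3, Ptgs2 was higher with TAM in every same-numbered pair.

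**Figure D4:**
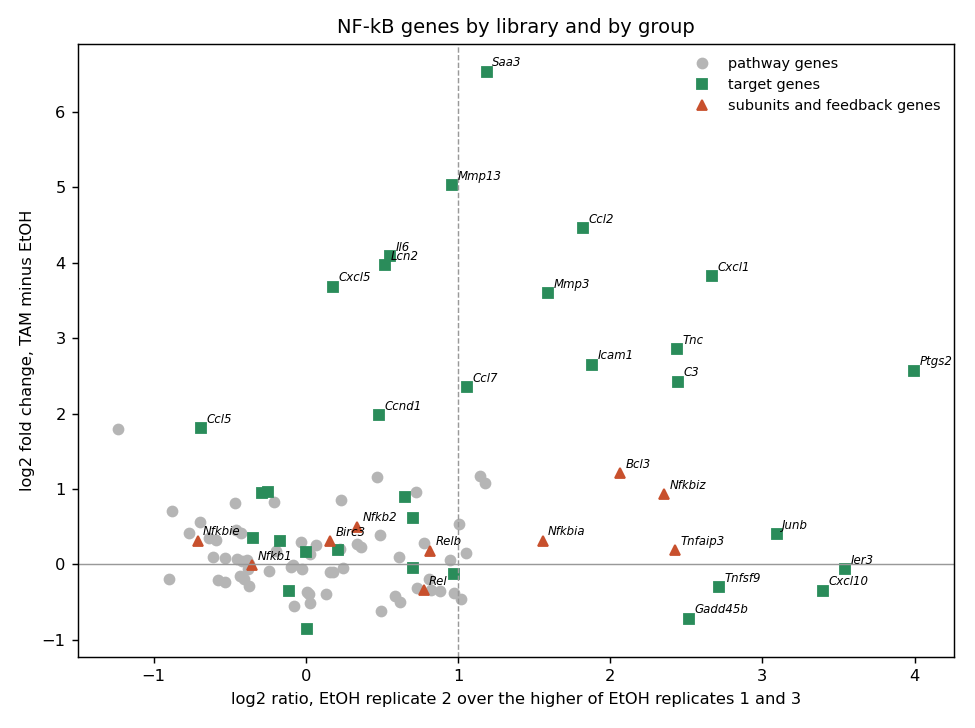
For each gene tested, the log2 ratio of EtOH replicate 2 to the higher of EtOH replicates 1 and 3 (x axis) and the log2 fold change of TAM minus EtOH (y axis), for the subunits and feedback genes, other pathway genes and target genes, with a dashed line at a 2-fold ratio. Bcl3, Nfkbiz, Tnfaip3 and Nfkbia lie right of the line with log2 fold changes of 1.21 or less, whereas Saa3, Ccl2 and Mmp3 lie right of it with 3.59 or more. Saa3, Ccl2 and Mmp3 are among 14 target genes at or right of the line, and in 9 of the 14 the groups overlapped.

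The genes whose course over the 6 libraries was nearest to the mean of the 10, by Euclidean distance between log2 values centred on each gene's mean, were AI848100 (distance 0.16), 6030429G01Rik (0.19), Slc6a8 (0.25), Tnfrsf1a (0.28) and Sgtb (0.29). The mean course stood at −0.48, 0.56 and −0.62 in EtOH replicates 1, 2 and 3 and at 0.13, 0.24 and 0.17 in the TAM replicates. Tnfrsf1a, the main TNF receptor gene, followed it with 1793, 3068 and 1518 normalized counts with EtOH and 2421, 2349 and 2665 with TAM. Tnfrsf1a was picked for this likeness, and it was highest in EtOH replicate 2, with the TAM libraries between that library and the other EtOH libraries.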

How the data were processed

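The authors mapped poly(A) RNA-seq reads to mm9 with TopHat, took gene counts from htseq-count and applied TMM scaling in edgeR, and versions are not given in the sources used here. The signal deposited by the authors is 1 table of normalized counts, genes by libraries, whose scaling is not stated. Its values are not whole, so edgeR was not run and read depth, and with it counting error, is unknown. The precision is that of 3 libraries against 3, where an exact two-sided permutation test cannot go below p = 0.1.

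Differences in log2(value + 1) were tested with limma 3.58.1 (R 4.3.3) with an intensity trend over genes at 1 c.p.m. or more in at least 3 libraries, adjusted by Benjamini-Hochberg over all genes tested, and called at an adjusted p under 0.05. Libraries were grouped by title. After subtracting group means, libraries with the same number correlated over genes at r = 0.24, 0.29 and 0.42. The main fit had no block, and the replicate number was the block of an alternative fit. The numbers are those of the labels, and whether same-numbered libraries share a culture or day is not stated.

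The genes, the lists and the rule for named genes were chosen with earlier results of these data known. Named were all 10 genes, a fixed core of the pathway list, target genes called with or without the block, and further target genes by size. Of the names listed, 2 (Otulin and Adgre1) were not matched to a row. Positions and exon lengths are from GENCODE vM1 (mm9), and promoter windows, from 250 bases before to 50 after a start, from RefSeq. The fit was tested on simulated data. Alternatives were the block, 2 scalings, 2 filters, pseudocounts of 0.1 and 10, library weights and each library left out. Summaries used pandas 2.3.3 on Python 3.11.15, and plots matplotlib 3.10.9.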

Additional observations from a re-analysis of the deposited data

How the results depend on the processing

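Of the 150 log2 fold changes of the 10 genes under other settings, 138 kept their direction and their side of the threshold. Nfkb1 turned positive with equal library sums (0.10), median-ratio scaling (0.0099) and without the libraries numbered 2 (0.0086). With each library left out in turn it ranged from −0.12 to 0.12, Nfkbia from −0.046 to 0.88 and Tnfaip3 from −0.38 to 1.05. Scaling to equal sums moved the median of all genes from −0.03 to 0.08 and that of the 10 genes from 0.31 to 0.42. Library weights called 2 of the 10 genes, 386 genes of the table higher and 356 lower, 3 pathway genes higher and 1 lower, and 13 target genes higher and 1 lower. Without the block 20 genes of the table were higher and 9 lower, and with the replicate block 119 were higher and 73 lower, as were 10 target genes (higher). The block changed no call among the 10 genes or the pathway list. Without a filter 12 were higher, 5 lower and 0 target genes were called. At 10 or more in every library 4 were lower and 0 target genes were called, and at a pseudocount of 0.1 the target count was 0. Equal sums called 3 target genes. Leaving out each library gave 0 to 6 genes higher, 0 to 9 lower and 0 to 2 target genes. Without the libraries numbered 2, 5 were higher and 4 lower, with 2 target genes. These target counts include Il6 and Lcn2, which passed the filter only through the TAM libraries. The cause of these shifts was not tested. Read depth, and so what it limits for low genes such as Rel, is unknown.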

Other observations

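In the pathway list the groups did not overlap in 15 of the 62 genes tested, with TAM above in 9 and below in 6, where 9.19% of all genes were above and 11.4% below. Of these, 12 were outside the named core, and 4 of the 12 are described, chosen after their values were seen. Tnfrsf11a, the receptor of the osteoclast cytokine RANKL, had 33.5, 14.3 and 21.1 normalized counts in EtOH replicates 1, 2 and 3 and 49.2, 142 and 66.7 in the TAM replicates. All TAM libraries were higher, at a log2 fold change of 1.79 ± 0.50 (standard error) and a limma adjusted p of 0.217. Traf3, an adaptor that holds Map3k14 in check, had 574, 386 and 627 normalized counts with EtOH and 748, 833 and 715 with TAM, a log2 fold change of 0.56 (limma adjusted p = 0.342). Tab2, a bridge between ubiquitin chains and the kinase encoded by Map3k7, had 4360.0, 4451 and 4181 normalized counts with EtOH and 2893, 3242 and 3008 with TAM, a log2 fold change of −0.51 (limma adjusted p = 0.242). For Map3k7 itself the log2 fold change was 0.45 (limma adjusted p = 0.327). None of these 4 genes passed an adjusted p of 0.05 without or with the replicate block, and Tab2 passed with library weights (limma adjusted p = 0.0385). The other 8 were Ripk1, Ube2v1 and Tlr3, higher in every TAM library, and Nfkbid, Tab1, Tab3, Rnf31 and Commd1, lower in every TAM library.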
